A study of Mus musculus with 14 samples.

Results

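Expression of 34 lysosome genes was followed in mouse microglia, the resident macrophages of the brain, after a transient block of a brain artery and in mice without Toll-like receptor 4. The genes were a named list of cathepsins and legumain (12 proteases), glycan and lipid hydrolases with the saposin precursor (7), membrane and lipid transport proteins (4), the regulators Tfeb and Mcoln1 (2) and subunits of the proton pump (9). All 34 had a row on the array that was annotated to exactly 1 gene symbol, out of 19938 genes with such a row. Each sample was RNA from microglia sorted directly from the cortex of the operated side, hybridised to an Affymetrix Mouse Gene 1.0 ST array. The mice were C57BL/6J males, 12 to 14 weeks old. Under isoflurane, the middle cerebral artery was blocked for 15 min and the brain was reperfused for 72 h (ischaemia and reperfusion, I/R), or a sham operation was done. The titles of all I/R samples also carry the letters IPC, which the sources used here do not explain, so the groups follow the treatment label. There were 4 wild-type arrays after sham and 4 after I/R, each lettered A to D, and 3 TLR4-/- arrays after sham (A, B and D) and 3 after I/R (B, C and D). How the TLR4-/- allele was made, how the cells were sorted, and whether each array held a separate animal are not stated in the sources used here, so a p-value here rests only on array-to-array spread, part of which may be technical.

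The lysosome is the acidic compartment in which a cell degrades what it has engulfed and what it recycles. Cathepsins cut proteins, the hydrolases remove sugars and lipids, and the V-ATPase acidifies the lumen: its cytosolic V1 sector hydrolyses ATP and its membrane V0 sector carries protons. Microglia engulf dead cells and debris after injury, and the transcription factor TFEB can raise many lysosome genes through a promoter motif called the CLEAR element. TLR4 is an innate receptor for bacterial lipopolysaccharide and for signals of tissue damage.

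Values are log2 signals after RMA, 1 per gene and array, and a change is a difference of group means on that scale, tested with limma over all genes and called at a Benjamini-Hochberg adjusted p under 0.05. Array medians over genes lay between 5.27 and 5.36, and arrays of a group correlated at r of 0.981 to 0.993. All 4 wild-type sham arrays and all 3 TLR4-/- I/R arrays correlated better with the other genotype of the same surgery than with their own group, with the widest gaps for wild-type sham C (0.985 within, 0.989 across) and TLR4-/- I/R D (0.987 and 0.991). Tlr4 itself gave 8.57 to 8.92 in wild-type sham, 8.14 to 8.48 in wild-type I/R, 8.15 to 8.47 in TLR4-/- sham and 7.62 to 8.40 in TLR4-/- I/R, and neither genotype comparison was called (adjusted p = 0.92 and 0.634, limma). Every TLR4-/- sham array nevertheless lay below every wild-type sham array (difference -0.457, SE 0.158). The fall of Tlr4 after I/R in wild type was called (-0.479, adjusted p = 0.0485, limma). The Tlr4 row is not stated to lie inside the altered part of the gene, so it does not check the genotype labels. Signal at or below 4.67, the 95th percentile of 1027 olfactory receptor genes, was taken as background, and 12533 of the 19938 genes and 32 of the 34 members lay above it by their mean over all arrays.

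After I/R a minority of these genes rose and none fell by the test. In wild type 6 of 34 rose and 0 fell (17.6%, against 9.78% of all 19938 genes called, 6.15% higher and 3.63% lower). They were the hydrolases Gla and Gusb, the cathepsins Ctsc and Ctsz, and the V1 subunits Atp6v1a and Atp6v1c1. In TLR4-/- 7 of 34 rose and 0 fell (20.6%, against 8.17% of all genes, 5.04% higher and 3.13% lower): Gla, Gusb, and the V1 subunits Atp6v1a, Atp6v1b2, Atp6v1c1, Atp6v1d and Atp6v1h. With arrays centred on the medians of all rows, the share of higher genes among all those called moved from 62.9% to 76.8% in wild type and from 61.7% to 71.3% in TLR4-/-. Among the 12533 genes above background, 14.5% were called in wild type (9.14% higher) and 12.3% in TLR4-/- (7.54% higher), closer to the members' shares than the figures over all genes. The members called in both genotypes were Gla, Gusb, Atp6v1a and Atp6v1c1, 66.7% of the wild-type calls and 57.1% of the TLR4-/- calls. The median change over the 34 was 0.05 in wild type and 0.12 in TLR4-/-, beside -0.06 and -0.03 over all genes. Without wild-type sham C and TLR4-/- I/R D, 5 were called in wild type, with Ctsc and Ctsz lost and Ctsf called lower, and 6 in TLR4-/-, with Atp6v1c1 lost.

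**Figure D1:**
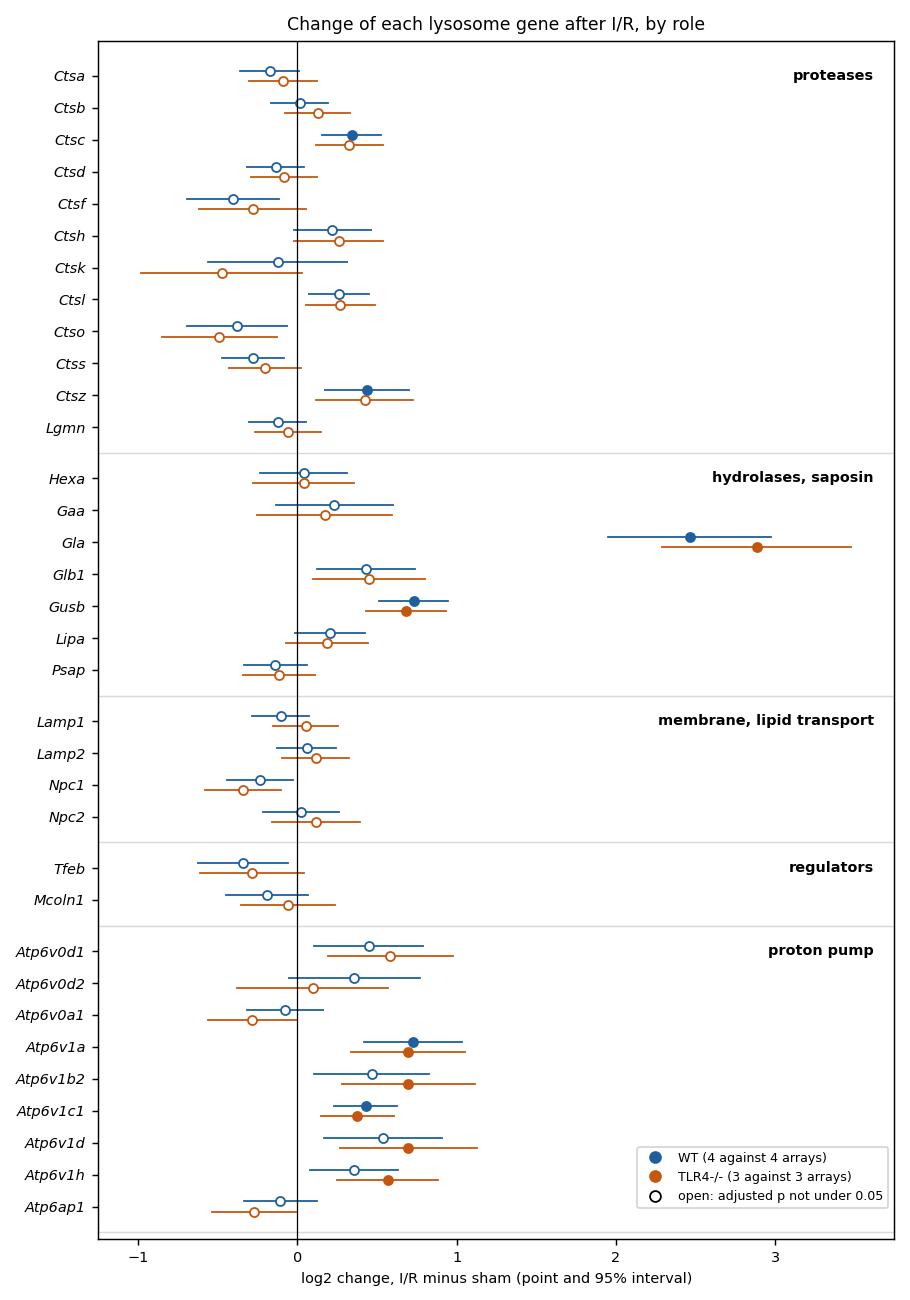
Change of each of the 34 lysosome genes after I/R on the log2 scale, with 95% intervals, in wild type (blue, 4 against 4 arrays) and TLR4-/- (orange, 3 against 3), ordered by role. Filled points passed an adjusted p of 0.05: 6 in wild type and 7 in TLR4-/-, all to the right of 0, with Gla far out at 2.47 and 2.88. The proteases lie on both sides of 0, from -0.405 to 0.44 in wild type and from -0.49 to 0.42 in TLR4-/-.

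The promoters of 4 members show how the CLEAR core motif TCACGTGA was placed in genes that rose and in genes that did not. Each sequence is the 250 bases before the start site, read 5′ to 3′ on the gene's strand, from RefSeq (GRCm38.p6), with the motif in capitals. Gla (chrX:134601006-134601255, minus strand) holds 2 copies, Atp6v1a (chr16:44139260-44139509, minus) and Ctsd (chr7:142387828-142388077, minus) hold 1 each, and Gusb (chr5:130003050-130003299, minus) holds none.
Gla: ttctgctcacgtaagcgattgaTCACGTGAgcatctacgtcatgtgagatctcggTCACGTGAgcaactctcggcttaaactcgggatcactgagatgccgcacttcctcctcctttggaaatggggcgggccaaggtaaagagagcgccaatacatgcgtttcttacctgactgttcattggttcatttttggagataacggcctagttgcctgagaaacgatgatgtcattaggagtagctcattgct
Atp6v1a: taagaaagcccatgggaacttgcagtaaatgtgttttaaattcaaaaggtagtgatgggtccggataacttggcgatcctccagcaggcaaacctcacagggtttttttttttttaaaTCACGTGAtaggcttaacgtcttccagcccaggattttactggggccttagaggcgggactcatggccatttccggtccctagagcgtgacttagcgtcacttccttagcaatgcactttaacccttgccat
Ctsd: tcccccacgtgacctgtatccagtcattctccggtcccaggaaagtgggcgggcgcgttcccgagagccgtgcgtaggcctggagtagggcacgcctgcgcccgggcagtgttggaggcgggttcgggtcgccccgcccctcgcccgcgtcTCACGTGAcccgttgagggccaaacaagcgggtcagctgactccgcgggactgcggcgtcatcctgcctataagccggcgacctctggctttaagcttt
Gusb: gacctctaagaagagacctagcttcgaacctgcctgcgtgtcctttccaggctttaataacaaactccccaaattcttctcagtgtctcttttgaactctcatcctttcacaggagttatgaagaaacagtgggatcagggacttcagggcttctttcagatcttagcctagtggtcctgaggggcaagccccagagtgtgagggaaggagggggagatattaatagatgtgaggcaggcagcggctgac
Gla, Gusb and Atp6v1a rose in both genotypes, and Ctsd was called in neither.

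Of the 34 genes, 27 had a promoter in the RefSeq table, as a window from 250 bases before to 50 after a start site; Ctsb, Ctsh, Npc1, Atp6v0d2, Atp6v1b2, Atp6v1c1 and Atp6v1h were not matched. TCACGTGA, which reads the same on both strands, was in 6 of the 27 (22.2%: Ctsa, Ctsd, Gla, Mcoln1, Atp6v0d1 and Atp6v1a), beside 1.12% of 27025 genes in the table. The shorter E-box CACGTG, which lies inside it and is also its own reverse complement, was in 12 of the 27 (44.4%), beside 8.09% of all genes. Of the 6 members with TCACGTGA, Gla and Atp6v1a were called after I/R in both genotypes and Ctsa, Ctsd, Mcoln1 and Atp6v0d1 in neither. Gusb, Ctsc, Ctsz and Atp6v1d, which were called in at least 1 genotype, had neither motif in the window. A match describes the letters and says nothing of binding. The CLEAR element is known as a motif of lysosome genes, so a higher share in a list of such genes is not a result of these arrays.

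**Figure D2:**
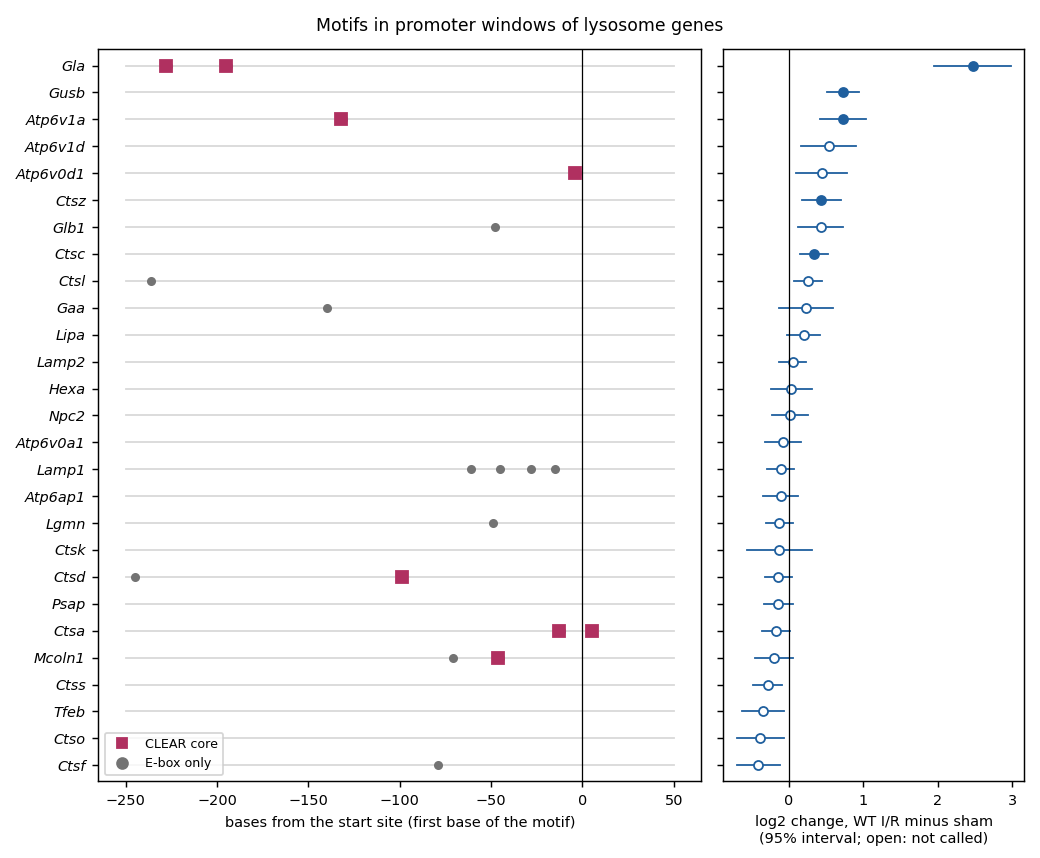
Left, position of the CLEAR core TCACGTGA (squares) and of E-boxes outside it (dots) in the promoter windows of the 27 matched lysosome genes, in bases from the start site. Right, the wild-type change after I/R with its 95% interval, by which the genes are ordered. Squares stand beside the highest change (Gla, 2.47), other changes above 0 (Atp6v1a and Atp6v0d1) and changes below 0 (Ctsd, Ctsa and Mcoln1).

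Gla, which encodes alpha-galactosidase A and removes terminal galactose from glycolipids, had the largest change of the 34 genes in both genotypes. Its wild-type sham values were 7.67, 6.84, 6.50 and 6.33 in arrays A to D, and its wild-type I/R values were 9.32, 9.10, 9.39 and 9.39. In TLR4-/- it read 7.10, 6.22 and 6.77 after sham (A, B and D) and 9.47, 9.91 and 9.36 after I/R (B, C and D). Every I/R array lay above every sham array in both genotypes, and sham arrays varied more than I/R arrays in wild type, from 6.33 to 7.67. The change was 2.47 (SE 0.242, 5.52-fold, adjusted p = 2.24e-06, limma) in wild type and 2.88 (SE 0.279, 7.38-fold, adjusted p = 3.28e-06) in TLR4-/-. The wild-type change minus the TLR4-/- change was -0.42 (95% interval -1.20 to 0.36), which did not pass the test.

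Gusb, the beta-glucuronidase that trims glycosaminoglycans, rose by a smaller and tighter amount. It read 10.10, 10.13, 10.02 and 10.23 in wild-type sham (A to D) and 10.79, 10.91, 10.89 and 10.80 after I/R. TLR4-/- arrays read 9.99, 9.96 and 10.23 after sham and 10.56, 10.84 and 10.82 after I/R. The groups did not overlap in either genotype. The change was 0.73 (SE 0.102, 1.66-fold, adjusted p = 0.000126, limma) in wild type and 0.68 (SE 0.118, adjusted p = 0.00128) in TLR4-/-, and the difference of changes was 0.05 (95% interval -0.28 to 0.38). Gla and Gusb were the members called in both genotypes under each of the 23 alternatives run.

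The other 5 of this group were not called in either genotype. Glb1, the beta-galactosidase, came nearest: its sham values spanned 8.64 to 9.26 and its I/R values 9.25 to 9.58 in wild type, a change of 0.43 (adjusted p = 0.0736, limma), and 0.45 in TLR4-/- (adjusted p = 0.123). Wild-type sham D (9.26) reached into the I/R range, and Glb1 was called in wild type when that array, or TLR4-/- I/R B or D, was left out. Gaa, which breaks down glycogen (0.23 and 0.17), and Lipa, the acid lipase (0.20 and 0.19), had changes above 0 with adjusted p of 0.266 or more. Hexa, the alpha chain of beta-hexosaminidase, was at 0.04 in both genotypes, and Psap, whose product is cut into the saposins that help hydrolases reach lipids, at -0.14 and -0.12.

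All calls among the 9 proton pump members were in V1 subunits. Of the 5 V1 members, 2 rose in wild type and 5 in TLR4-/-, and 0 of the 4 V0 and accessory members were called in either. That is 22.2% and 55.6% of the 9, against 9.78% and 8.17% of all genes and 14.5% and 12.3% of those above background. Of those 4, Atp6v0d2 was at background, and the groups of Atp6v0d1 did not overlap in either genotype. A difference between the sectors was not tested. The 5 are not the whole sector: 6 further V1 genes outside the 34 gave 0 calls in both genotypes by limma (1 at an unadjusted p under 0.05 in each), with median changes of 0.05 and 0.07. Of these 6 only 4 lay above background in each group, and the medians take in all 6. In wild type Atp6v1f, Atp6v1e1 and Atp6v1g1 were at 0.54, 0.14 and 0.13. Atp6v1b1, Atp6v1c2 and Atp6v1g2 were at -0.03, -0.07 and -0.04 there. The mean log2 value over the 5 V1 genes ran from 8.47 to 9.02 in wild-type sham arrays and from 9.22 to 9.31 after I/R, and from 8.53 to 8.73 and 9.03 to 9.36 in TLR4-/-. On this mean every I/R array lay above every sham array of its genotype.

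Atp6v1a is the catalytic subunit that binds ATP. Its wild-type values were 9.65, 9.39, 9.20 and 9.07 after sham and 10.06, 10.07, 10.22 and 9.89 after I/R, and its TLR4-/- values 9.21, 8.94 and 9.44 after sham and 9.94, 10.10 and 9.63 after I/R. Neither genotype's groups overlapped. It rose by 0.73 (SE 0.146, 1.66-fold, adjusted p = 0.0034, limma) in wild type and by 0.69 (SE 0.168, adjusted p = 0.0157) in TLR4-/-.

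Atp6v1c1, a subunit of the stalk that joins V1 to V0, read 9.92, 9.78, 9.92 and 10.08 in wild-type sham and 10.29, 10.37, 10.35 and 10.40 after I/R. TLR4-/- arrays gave 9.89, 9.97 and 10.06 after sham and 10.42, 10.36 and 10.28 after I/R, again with no overlap. The change was 0.43 (SE 0.0939, adjusted p = 0.00671, limma) in wild type and 0.38 (SE 0.108, adjusted p = 0.0418) in TLR4-/-. The TLR4-/- call was lost in 13 of 23 alternatives, with an adjusted p of up to 0.159.

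The 3 V1 subunits called in TLR4-/- and not in wild type were Atp6v1b2, which shares the ATP-binding head with Atp6v1a, Atp6v1d of the rotor and Atp6v1h, a regulatory subunit. Atp6v1b2 ran from 8.66 to 9.10 after sham and read 9.71, 9.68 and 9.46 after I/R in TLR4-/-, and 9.61, 9.12, 8.60 and 9.32 against 9.58, 9.52, 9.60 and 9.82 in wild type. Its TLR4-/- groups stood apart (0.70, SE 0.197, adjusted p = 0.0373, limma), while wild-type sham A lay among the I/R arrays (0.47, adjusted p = 0.102). Atp6v1d read 8.49, 8.90 and 8.58 after sham and 9.68, 9.33 and 9.05 after I/R in TLR4-/-, and 9.05, 8.76, 8.16 and 8.81 against 9.31, 9.21, 9.02 and 9.38 in wild type. It showed the same pattern, with wild-type sham A above I/R array C (0.70, SE 0.202, adjusted p = 0.0427 in TLR4-/-, and 0.54, adjusted p = 0.0662, in wild type). Atp6v1h read 6.39, 6.51 and 6.45 after sham and 7.04, 7.29 and 6.72 after I/R in TLR4-/-, and 6.88, 6.77, 6.46 and 6.45 against 6.93, 7.05, 6.92 and 7.09 in wild type. Its groups did not overlap in either genotype (0.57, SE 0.151, adjusted p = 0.0274 in TLR4-/-, and 0.36, adjusted p = 0.103, in wild type).

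These 3 did not differ between genotypes in the test of the difference itself. The wild-type change minus the TLR4-/- change was -0.23 (95% interval -0.78 to 0.32) for Atp6v1b2, -0.16 (-0.73 to 0.40) for Atp6v1d and -0.21 (-0.63 to 0.21) for Atp6v1h. With wild-type sham A left out, Atp6v1b2 and Atp6v1d were called in wild type too. The TLR4-/- calls of V1 subunits depended on single arrays. With TLR4-/- I/R array C or TLR4-/- sham array A left out, no V1 subunit was called there and 2 members remained, Gla and Gusb. Wild-type arrays, which do not enter the group means compared, mattered too. Without wild-type I/R A, B, C or D, the TLR4-/- calls of Atp6v1c1 and Atp6v1d were lost.

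**Figure D3:**
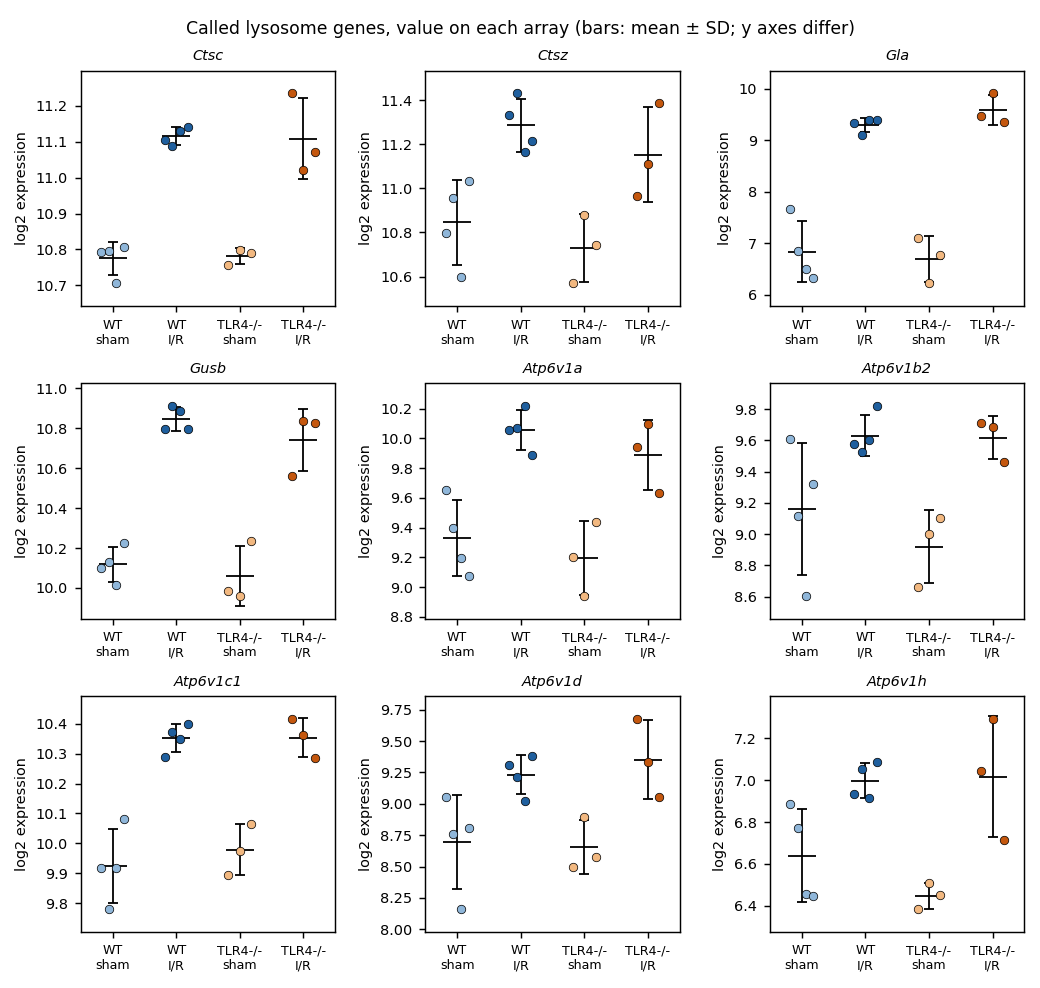
Log2 value on each array (points) with mean and SD (bars) for the 9 lysosome genes called in at least 1 genotype, by group; each panel has its own y axis, which does not start at 0. I/R arrays lie above the sham arrays of the same genotype in every panel except Atp6v1b2 and Atp6v1d in wild type, where sham array A reaches the I/R range.

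The V0 and accessory members behaved unevenly. Atp6v0d1, which couples the rotor to the membrane ring, ran from 7.33 to 7.95 in wild-type sham and 8.00 to 8.35 after I/R, and from 7.25 to 7.99 and 8.13 to 8.41 in TLR4-/-. Its groups did not overlap in either genotype, but the changes of 0.45 and 0.58 missed the threshold (adjusted p = 0.0985 and 0.0667, limma). In TLR4-/- it was called with array weights, without wild-type sham C and without TLR4-/- sham B (adjusted p down to 0.0262). Atp6v0a1, of the proton-carrying channel, had changes of -0.08 and -0.28, and the accessory protein Atp6ap1 of -0.11 and -0.27, all uncalled. Atp6v0d2, known from osteoclasts, was at background in every group mean, with wild-type I/R array D highest at 4.06.

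Among the 12 proteases 2 rose in wild type (16.7%, against 9.78% of all genes called and 14.5% of those above background). In TLR4-/- 0 were called (against 8.17% and 12.3%), and the median changes were -0.12 and -0.07. Ctsc, the dipeptidyl peptidase that activates serine proteases of immune cells, read 10.79, 10.80, 10.71 and 10.81 in wild-type sham and 11.10, 11.09, 11.13 and 11.14 after I/R. TLR4-/- arrays gave 10.76, 10.80 and 10.79 after sham and 11.23, 11.02 and 11.07 after I/R. No groups overlapped, and the change was 0.34 (SE 0.0868, 1.27-fold, adjusted p = 0.0185, limma) in wild type and 0.33 (95% interval 0.11 to 0.54, adjusted p = 0.0568) in TLR4-/-.

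Ctsz, a carboxypeptidase, read 10.80, 10.96, 10.60 and 11.03 in wild-type sham and 11.33, 11.43, 11.16 and 11.21 after I/R, against 10.57, 10.88 and 10.74 and then 10.96, 11.11 and 11.39 in TLR4-/-. The groups stood apart in both. The change was 0.44 (SE 0.125, adjusted p = 0.0332, limma) in wild type and 0.42 (SE 0.144, adjusted p = 0.0886) in TLR4-/-, and the difference of changes was 0.02 (95% interval -0.39 to 0.42), as it was 0.01 (-0.27 to 0.30) for Ctsc. Single arrays ended these wild-type calls: Ctsc was lost without sham C, I/R C or I/R D (adjusted p up to 0.0539), and Ctsz without sham A, sham C, I/R A, I/R B or I/R D (up to 0.103).

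The main acid proteases of the endosome and lysosome were not called. Ctsb, an abundant cysteine cathepsin, had changes of 0.01 in wild type and 0.13 in TLR4-/-, the aspartic protease Ctsd of -0.14 and -0.09, and legumain (Lgmn), which cleaves after asparagine, of -0.12 and -0.06. The 95% interval for Ctsb was -0.17 to 0.19 in wild type, and for Ctsd -0.32 to 0.04. These rows were bright: over all arrays Ctsb read 11.60 to 11.87, Ctsd 11.95 to 12.25 and Lgmn 11.94 to 12.13. The highest value of any gene on an array was 12.29 to 12.52. RMA can compress differences of bright rows, so a change near 0 does not show stable expression. Whether compression acted here was not tested. Ctsl and Ctss, both cysteine proteases used in antigen processing, pointed opposite ways. Ctsl ran from 11.02 to 11.28 in wild-type sham and 11.37 to 11.45 after I/R (0.26, adjusted p = 0.0758, limma), and from 11.13 to 11.20 and 11.43 to 11.46 in TLR4-/- (0.27, adjusted p = 0.13). Ctss ran from 11.88 to 12.14 in wild-type sham and 11.66 to 11.78 after I/R (-0.28, adjusted p = 0.065), and from 11.99 to 12.14 and 11.80 to 11.88 in TLR4-/- (-0.20, adjusted p = 0.301). In all 4 comparisons the groups did not overlap, and with limma's trend and robust options Ctsl was called higher in both genotypes and Ctss lower in wild type.

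Ctsf and Ctso, less studied cysteine cathepsins, had the lowest changes among the proteases above background. Ctsf changed by -0.41 (adjusted p = 0.0765, limma) in wild type and -0.28 in TLR4-/-, and Ctso by -0.38 (adjusted p = 0.129) and -0.49 (adjusted p = 0.0975). Ctsf was called lower in wild type without sham array C or I/R array B, and with array weights. Array weights also called Ctso lower in both genotypes (adjusted p = 0.0481 and 0.0377, limma). Ctsa, which protects beta-galactosidase and neuraminidase, was at -0.17 and -0.09, and the aminopeptidase Ctsh at 0.22 and 0.26. Ctsk, the collagen-cutting cathepsin of osteoclasts, was at background in every group, at 3.09 to 4.29 over all arrays.

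The membrane and lipid transport proteins were not called. Npc1, which exports cholesterol from the lysosome, came nearest: 10.34 to 10.49 in wild-type sham against 10.02 to 10.32 after I/R (-0.23, adjusted p = 0.16, limma), and 10.27 to 10.47 against 10.01 to 10.11 in TLR4-/- (-0.34, adjusted p = 0.0754), with no overlap in either. With limma's trend and robust options Npc1 was called lower in TLR4-/- (adjusted p = 0.0487). Its partner Npc2 was at 0.02 and 0.12. The abundant membrane glycoproteins Lamp1 and Lamp2 were at -0.10 and 0.05, and at 0.06 and 0.12. Lamp1 was the member whose change had opposite signs in the genotypes.

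Neither regulator was called. Tfeb, the transcription factor named above, ran from 6.03 to 6.56 in wild-type sham and 5.72 to 6.11 after I/R (-0.34, adjusted p = 0.127, limma), and from 5.95 to 6.17 and 5.65 to 6.07 in TLR4-/- (-0.29, adjusted p = 0.328), with overlap in both. Mcoln1, the lysosomal calcium channel, was at -0.19 and -0.06.

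**Figure D4:**
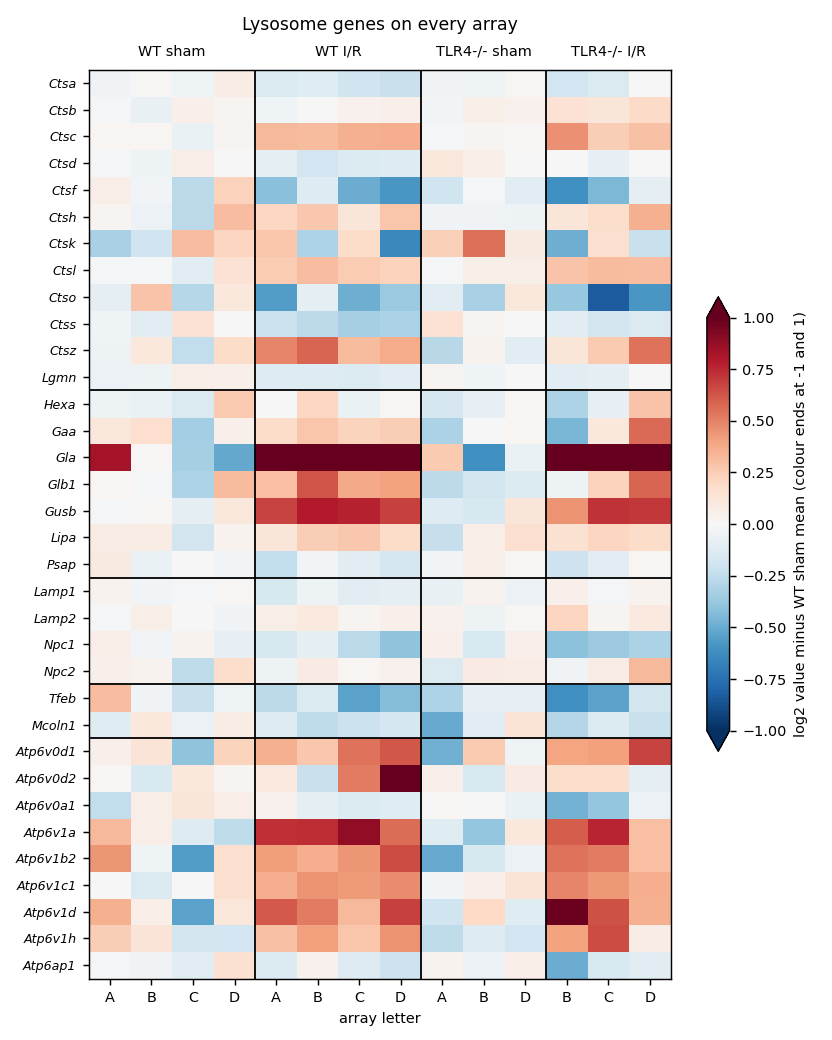
Log2 value of each lysosome gene on each of the 14 arrays minus its wild-type sham mean; colours end at -1 and 1, so Gla is drawn at the end of the scale on the 7 I/R arrays. The rows of Gla, Gusb and the V1 subunits turn red in both I/R groups, while sham arrays of 1 group also differ, for example wild-type sham C in Atp6v1b2 and Atp6v1d.

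Counted by arrays that do not overlap rather than by the test, 11 of 34 members were higher after I/R in wild type (32.4%, against 7.78% of all genes and 11.4% of those above background) and 7 lower (20.6%, against 7.83% and 9.89%). In TLR4-/- 14 were higher (41.2%, against 11.1% and 15.0%) and 4 lower (11.8%, against 12.5% and 15.7%). The genes lower in wild type were Ctsa, Ctsd, Ctss, Lgmn, Lamp1, Npc1 and Mcoln1, and their changes were small, from -0.28 to -0.10. Wild-type sham C was the lowest of its group for 18 of 34 members, TLR4-/- sham A for 19 and TLR4-/- I/R B for 20. Genes on an array can shift together, so these counts are not separate evidence, and no such count was made over all genes.

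No difference between the genotypes in the response to I/R passed the test for any member. Across the 34 members the wild-type and TLR4-/- changes correlated at r = 0.974 (Spearman rho 0.933) and at r = 0.930 without Gla, beside 0.839 over all genes. The 2 changes come from different arrays, and genes are not independent replicates. They had the same sign for 33 of 34 members (97.1%), beside 70.0% of all genes and 77.1% of those above background, where r was 0.877. By limma's test of the difference 0 of 34 were called (0 at an unadjusted p under 0.05, against 0% of all genes called and 3.82% at an unadjusted p under 0.05). The differences ran from -0.42 for Gla to 0.35 for Ctsk, and the interval for Gla still allowed a TLR4-/- change larger by 1.20 or smaller by 0.36.

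The genotypes were also set side by side within each surgery. Between the sham groups 0 of 34 were called (0.00502% of all genes), with differences, TLR4-/- minus wild type, from -0.24 (Atp6v1b2) to 0.29 (Ctsk), and in 0 of 34 did the groups stand apart in either direction (3.65% of all genes higher and 1.85% lower). Between the I/R groups 0 of 34 were called (0.0201% of all genes), with differences from -0.27 (Atp6v0d2) to 0.28 (Gla). In neither comparison did a member reach an unadjusted p under 0.05, as 5.24% and 8.47% of all genes did. Ctsb, Ctsd, Ctss, Lgmn and Lamp1 were higher in all 3 TLR4-/- I/R arrays than in all 4 wild-type I/R arrays (14.7% of members, against 6.13% of all genes), by 0.06 to 0.14, with adjusted p of 0.67 or more, and 0 were lower in all (3.2% of all genes). Ctsb, for example, read 11.82, 11.80 and 11.87 against 11.63, 11.68, 11.72 and 11.73. Centring the arrays on their medians moved this comparison by -0.05 for every gene.

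Beyond the 34, 97 other lysosome genes in 7 lists gave 12 higher and 6 lower in wild type (18.6% called). In TLR4-/- 11 were higher and 4 lower (15.5%), and 0 were called in the other 3 comparisons. Over all genes 9.78% and 8.17% were called, and 14.5% and 12.3% of genes above background, closer to these shares. By group mean 85 to 88 of the 97 lay above background. Of 6 protease inhibitors 3 rose and 1 fell in wild type and 3 rose in TLR4-/-. Cst7, cystatin F, rose by 2.63 (SE 0.272, adjusted p = 4.25e-06, limma) in wild type and 2.57 in TLR4-/-, from 7.55 to 9.10 in wild-type sham arrays to 10.96 to 11.12 after I/R. Cstb, which inhibits cathepsins in the cytosol, rose by 1.36 and 1.58, and Serpinb6a by 1.71 and 1.31. Cst3, the secreted cystatin C, fell by 0.31 in wild type (adjusted p = 0.0261), and was at -0.16 in TLR4-/- (adjusted p = 0.399).

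Of the 7 other proteases, Ctse (1.26 and 0.80) and Scpep1 (0.73 and 0.70) rose in both genotypes and Dpp7 in wild type (0.74, beside 0.65 and an adjusted p of 0.104 in TLR4-/-). The 10 sorting genes include some that make or carry the mannose 6-phosphate tag. Of these, Gnptab rose by 0.92 and 1.07 and the receptor gene Igf2r by 1.64 and 1.48, the latter from sham means of 4.48 and 4.57 that lay within background. In the 26 other hydrolases 2 rose and 2 fell in wild type and 3 rose and 1 fell in TLR4-/-: Galc (0.84 and 0.77) and Galns (0.86 and 1.00), which degrade galactolipids and keratan sulphate, rose in both, the phospholipase Pla2g15 fell in wild type (-0.58) and the sulphamidase Sgsh in TLR4-/- (-0.70). In the other genotype Pla2g15 was at -0.50 (adjusted p = 0.0666, limma) and Sgsh at -0.49 (adjusted p = 0.0895). Grn (0.14 and 0.11) and Acp5 (0.44 and 0.29) were not called.

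Of 19 other membrane and transport genes, Cd63 rose (0.67 and 0.88) and Cd164 fell (-0.54 and -0.51) in both genotypes, and in wild type Tpcn2 rose (0.52) and the cystine exporter Ctns fell (-0.50). In TLR4-/- Tpcn2 was at 0.24 and Ctns at -0.38 (adjusted p = 0.525 and 0.116, limma). Cd68, often used as a marker of phagocytes, was at -0.12 and -0.04, uncalled. Of the 13 other proton pump genes, 10 lay above background in each group. The 13 gave 0 calls in either genotype by limma (2 and 3 at an unadjusted p under 0.05), and Tcirg1, a V0 channel subunit, was at -0.40 (adjusted p = 0.0895) and -0.44 (adjusted p = 0.113). Of 16 genes that control lysosome number and nutrient signalling, Rptor of the mTOR complex fell in both (-0.48 and -0.57) and Tfe3, a relative of Tfeb, in TLR4-/- (-0.56, adjusted p = 0.0497, limma), beside -0.41 in wild type (adjusted p = 0.0909).

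**Figure D5:**
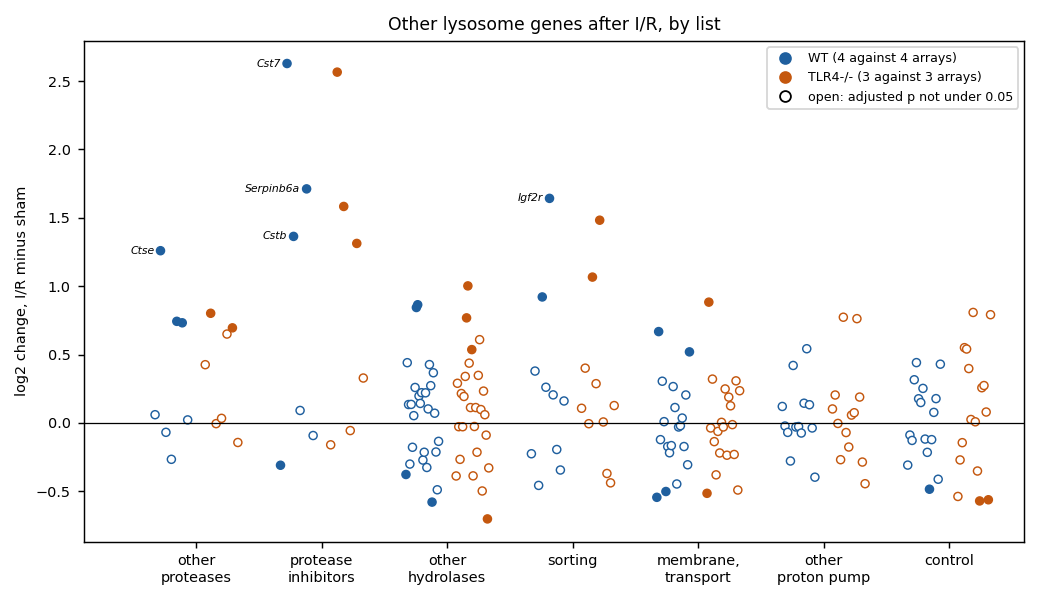
Change after I/R on the log2 scale of 97 lysosome genes outside the 34, by list, in wild type (blue) and TLR4-/- (orange); filled points passed an adjusted p of 0.05. The inhibitors Cst7, Serpinb6a and Cstb and the receptor gene Igf2r lie highest, and the other proton pump genes hold no filled point.

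Markers of cell types moved with I/R as well. All 11 measured microglial markers were above background in every group, and 7 fell in wild type and 5 in TLR4-/-, with list means of 11.10 to 11.13 in wild-type sham and 10.71 to 10.92 after I/R, and of 11.07 to 11.15 and 10.71 to 10.87 in TLR4-/-. Of 9 measured monocyte markers 6 rose in wild type and 4 in TLR4-/-, with list means of 4.87 to 5.03 and 6.32 to 6.95, and of 4.66 to 4.78 and 6.23 to 6.39. Fn1 rose by 5.53 and 5.40, and the defining receptor Ccr2 was at 0.41 (adjusted p = 0.0763, limma) and -0.22. Neutrophil markers were low, with at most 2 of 10 above background in a group and list means of 3.71 to 4.49 over all arrays, and Ly6g was at background in each group; Cxcr2 rose in wild type (0.54, adjusted p = 0.0436, limma). Of 9 border macrophage markers, Siglec1 rose in both genotypes (1.27 and 1.13). Cd209f fell in TLR4-/- (-1.31) and was at -1.06 in wild type (adjusted p = 0.051, limma). All 9 lay lower in TLR4-/- than in wild type after sham (median -0.42) and after I/R (median -0.53), with 0 called by limma and 2 and 5 at an unadjusted p under 0.05. Their list means were 7.14 to 7.50 in wild-type sham, 7.22 to 7.79 in wild-type I/R, 6.49 to 7.22 in TLR4-/- sham and 6.68 to 7.21 in TLR4-/- I/R. The part of these shifts in the lysosome genes' changes and genotype differences was not tested. In sorted bulk RNA, a change in the share of a cell type and a change in RNA per cell cannot be told apart.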

How the data were processed

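Microglial RNA of 14 mouse samples was measured on 1-colour arrays. The deposited table holds log2 values, 1 per row and sample, which the authors made with RMA in the oligo package, per the submitters' processing notes; no version is given in the sources used here. RMA corrects background, equalises the distributions of the arrays and summarises probes, so it can compress differences of bright rows and removes shifts common to an array. No further normalization was applied. Gene symbols came from the platform annotation: 21789 of 35556 rows carried 1 symbol, 1621 several and 12146 were unnamed here. Where a gene had more than 1 row (999 genes) the row with the highest mean was used, which left 19938 genes; each of the 34 lysosome genes had 1 row.

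A linear model with a mean for each of the 4 groups was fitted to all arrays without a replicate block, using lmFit and eBayes of limma 3.58.1 (R 4.3.3). Adjusted p-values are Benjamini-Hochberg over all genes, called under 0.05. The script was tested on simulated data. The lysosome genes and all lists were chosen with earlier results of these data known. Every member called was described by its arrays, the others by ranges, and from each other list at most the 4 called genes with the smallest p were named. Some genes of the other lists are not reported here. Deviations of arrays with the same letter in their titles correlated at -0.0987 to 0.281 (median 0.041), and 3 of 18 pairs were over 0.1. Those of different-letter arrays correlated at -0.26 to 0.237 (median -0.005), with 6 of 55 pairs over 0.1. These correlations cannot settle whether the letters pair the arrays, so the replicate block was run as an alternative. Alternatives were centring the arrays on 2 kinds of median, the replicate block, a model of only the compared groups, trend and robust options, array weights, leaving out dim genes, the mean of a gene's rows, and leaving out each array, or both wild-type sham C and TLR4-/- I/R D; the centring on all rows and the last were chosen after seeing the data. Precision is limited by the few arrays in each group. Of the lysosome genes, 10 overlap another gene in the RefSeq table (GRCm38.p6).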

Additional observations from a re-analysis of the deposited data

Results flagged for a closer look

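In the 68 groups of 4 arrays formed by the 34 lysosome genes in wild type, 3 held an array far from the others by Dixon's test, where chance flags about 1 group in 20. Ctsc in wild-type sham C was 10.71, below the other 3 arrays at 10.79 to 10.81. Lipa in the same array was 9.70, below 9.93 to 9.97. Atp6v0a1 in wild-type sham A was 9.34, below 9.65 to 9.71. Groups of 3 arrays were not tested.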

How the results depend on the processing

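The number of lysosome genes called after I/R in wild type was 6, and 4 to 8 over all alternatives (4 to 7 when single arrays were left out). In TLR4-/- it was 7, and 5 to 10 over the alternatives that kept each array of the fit, but 2 to 8 when single arrays were left out. It was 2 without TLR4-/- I/R C or TLR4-/- sham A, and 4 without wild-type I/R A, wild-type I/R C, TLR4-/- I/R B, TLR4-/- sham B or TLR4-/- sham D. With the replicate block the counts were 7 and 6, and Atp6v1d was gained in wild type and Atp6v1c1 lost in TLR4-/-. Centring on the medians of all rows gave 7 and 6, with Atp6v1b2 and Atp6v1d lost and Ctsc gained in TLR4-/-. Of the 13 called changes, 6 held in every alternative (Gla and Gusb in both genotypes, Atp6v1a and Atp6v1c1 in wild type) and 7 were lost in at least 1. Of 157 uncalled changes 13 were called in at least 1 alternative, and 0 called changes reversed. Among the 13, those called lower were Ctsf, Ctso and Ctss in wild type and Ctso and Npc1 in TLR4-/-. In the difference of changes and both genotype comparisons 0 members were called in every alternative. With 3 or 4 arrays a group, the smallest change called among the 34 genes was 0.34.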
